A study of Gallus gallus with 2 samples.

Results

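Histone genes were described in 6C2 cells, transformed chicken precursors of red cells that cycle and, by the labels, are held at the stage of the erythroid colony-forming unit. Total RNA of this erythroleukemia line was sequenced in 2 samples, called replicate 1 and replicate 2 here, and they form 1 group with no second condition, so no test between conditions was possible. The labels name no treatment or genotype, and separate cultures are not stated, so the spread between the samples could be technical. Members were all rows of the gene table whose symbol begins as a histone symbol does, with HIST and a digit, or with H1 to H5 followed by A, B, F, a hyphen or nothing. This gave 35 of 17934 rows, under 18 different symbols, and 35 of the 16464 rows that were analysed. They were sorted into 4 linker histone genes, 27 core histone genes and 4 variant genes, by symbol except for H3-IX, which is described below among the variants. The core genes were 9 of H2A, 7 of H2B, 5 of H3 and 6 of H4.

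Core histones H2A, H2B, H3 and H4 form the protein spool of the nucleosome, and a linker histone of the H1 group binds where DNA enters and leaves it. In animals, most core histone genes lie in clusters, lack introns and are transcribed mainly during DNA replication, and their mRNAs end in a stem-loop in place of a poly(A) tail. Replacement variants such as H2A.Z and H3.3 are made throughout the cell cycle from genes with introns and polyadenylated mRNAs. Nucleated red cells of birds also make histone H5, a linker histone of this lineage that accumulates as their chromatin condenses.

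Read counts summed to 40064443 in replicate 1 and to 30668939 in replicate 2. Levels are RPKM, the read count divided by the gene model length in kilobases and by the library total, and values after ± are the SD of the 2 samples (n = 2). Detected means at least 1 RPKM in both samples, which 52.6% of all analysed genes reached. The symbols that matched markers of red cell precursors were all detected, 10 of 10, with a summed level of 3893 and 3967 RPKM. All 4 cell cycle markers were detected. Of 28 measured markers of T cells, B cells, macrophages, granulocytes, thrombocytes and fibroblasts, 8 were detected, the median of the list was 0.207 RPKM, and its summed level was 347 and 401.6 RPKM. The detected ones were CTSB at 112.3 and 119.4 RPKM, BTK at 101.8 and 115.0, SPARC at 88.3 and 113.4, BCL6 at 24.3 and 29.9, the thrombocyte markers GP9, ITGB3 and F13A1 at 2.80 to 6.22, and CD3E at 2.42 and 2.91. The markers CD4, CD8A, CD79B, PAX5, CSF1R, CD14 and PDGFRA were each under 0.1 RPKM in both samples.

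A few replacement and lineage histones held most of the histone signal. H3-IX, H1F0 and H2AFZ, each on a chromosome position of its own, took 77.1% of the histone reads in replicate 1 and 74.8% in replicate 2. Per length, they held 62.8% and 60.2% of the summed histone RPKM. The 27 core models together held 33.9% and 35.4% of it. How reads that match several near-identical copies were treated was not given in the sources used here. Core sums, and the shares and ratios that use them, are therefore uncertain throughout. All histone models together took 0.0892% of the reads in replicate 1 (95% exact binomial interval 0.0883 to 0.0902) and 0.0893% in replicate 2 (0.0882 to 0.0903), or 35749 and 27374 reads. These intervals cover counting error only.

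A model counted as detected where each sample reached 1 RPKM. By this rule 24 of 35 histone models were detected, against 52.6% of all 16464 analysed genes. At a minimum of 10 RPKM they numbered 14 of 35, against 29.9%, and at 100 RPKM 3 of 35, against 4.84%. By class, 3 of 4 linker, 17 of 27 core and 4 of 4 variant models were detected. The core models are short, from 311 to 431 bases, and among all 686 models of 300 to 450 bases 27.6% were detected. The median level of the core models, on the scale of log2(RPKM + 1), was 1.56, which lay 0.06 above the median of all analysed genes. The medians of linker and variant models were 4.48 and 5.13, each over 4 models that ranged from 0.09 to 273.8 RPKM and from 1.81 to 339.7 RPKM.

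**Figure D1:**
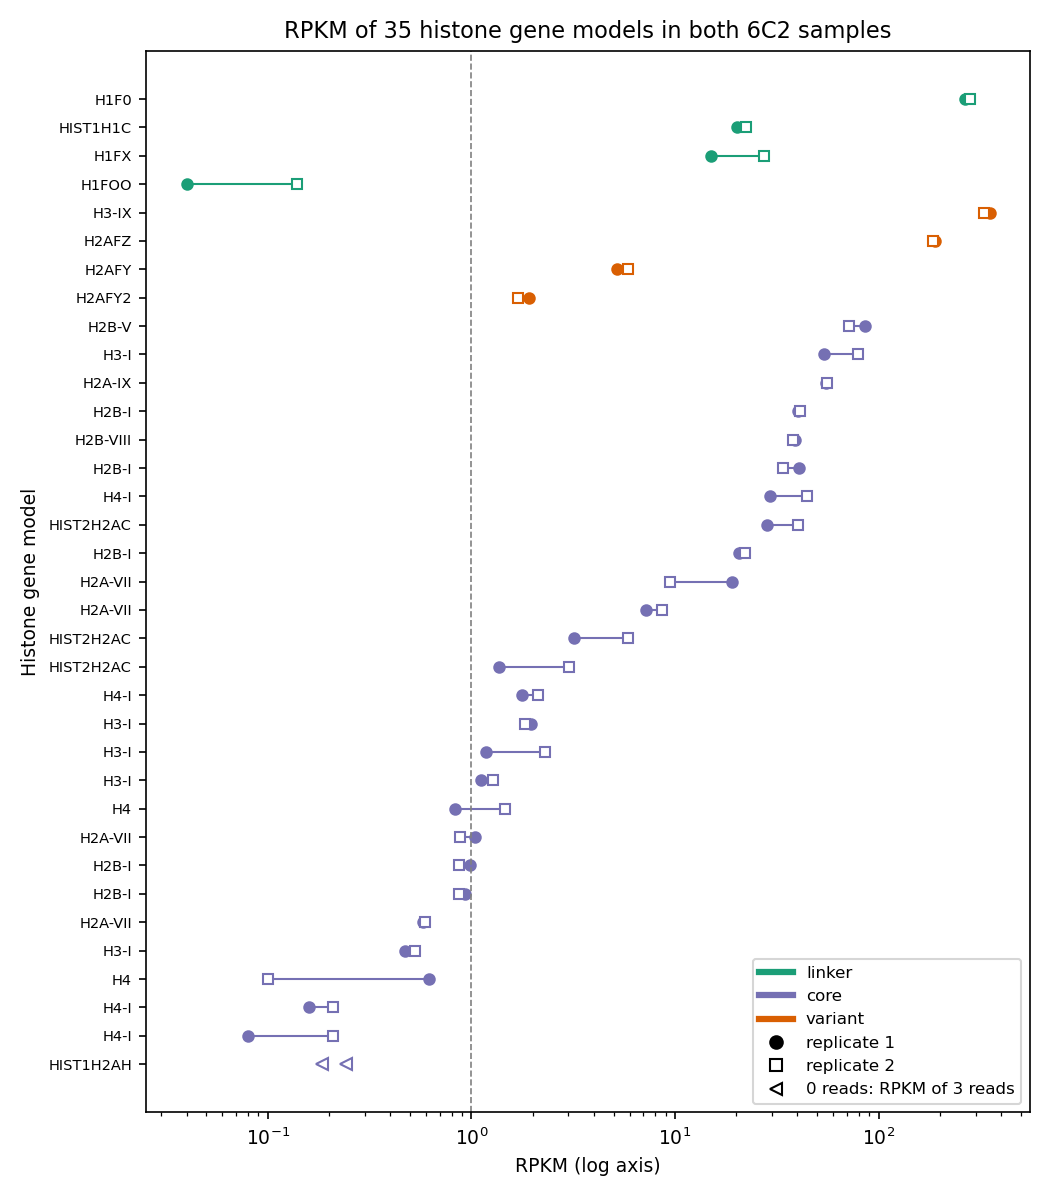
RPKM of the 35 histone gene models in replicate 1 (filled circles) and replicate 2 (open squares) on a log axis, grouped as linker, variant and core genes and ordered by mean within each group. H3-IX, H1F0 and H2AFZ lie at the right in both samples, while core models spread from 0 reads up to 85.8 RPKM, the level of H2B-V in replicate 1; the dashed line marks 1 RPKM.

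Among linker histones H1F0 stood far above the others. H1F0 is listed in RefSeq (assembly GRCg7b) with the synonym H5, the linker histone of nucleated bird red cells. Its model lies on chromosome 1 from 53075685 to 53076257, on the minus strand. Coordinates are as deposited, with a build not given in the sources used here. It had 6067 and 4880 reads, or 267.1 and 280.6 RPKM, and its mean of 273.8 ± 9.55 lay at the 97.4th percentile of all analysed genes. The samples were close, with a ratio of replicate 2 to replicate 1 of 1.05 (95% counting interval 1.01 to 1.09).

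HIST1H1C, a linker histone gene inside the core histone cluster, had 20.27 RPKM in replicate 1 and 22.45 in replicate 2. H1FX, a linker variant gene on chromosome 12, had 15.0 and 27.5. The oocyte linker histone gene H1FOO, also on chromosome 12, had 1 and 3 reads, or 0.04 and 0.14 RPKM. H1F0 was the highest linker histone in both samples and H1FOO the lowest, while the order of HIST1H1C and H1FX differed between the samples.

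Per length, H1F0 was 13.2 and 12.5 times HIST1H1C in the 2 samples, and 17.8 and 10.2 times H1FX. It made up 88.3% of the summed linker RPKM in replicate 1 and 84.9% in replicate 2, a mean of 86.6% ± 2.45. The linker sum covers the 4 models with a linker histone symbol. Models without a symbol inside the core histone cluster were not counted, the highest of them at 23.8 and 20.7 RPKM. Whether any of them encodes a linker histone was not checked.

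Variant histones split into a high pair and a low pair. H3-IX was the highest histone model, with 15106 and 10807 reads, or 351.2 and 328.2 RPKM, and a mean of 339.7 ± 16.3. It lies on chromosome 18 from 4698469 to 4700929, spans introns, and its symbol is a synonym of H3F3B in the RefSeq table, the gene of the replacement histone H3.3, also on chromosome 18 there. For these reasons it was counted as a variant, although its symbol follows the pattern of core H3 genes. The same table lists H2A-IX as a synonym of H2AFJ and H3-I as one of H3F3C, but their deposited models lie in the core histone cluster without introns and were kept as core genes.

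H2AFZ encodes H2A.Z, the H2A variant often found in nucleosomes near transcription start sites. It had 6407 and 4780 reads, or 189.1 and 184.3 RPKM (186.7 ± 3.42), on chromosome 4. Both high variants thus varied little between the samples, and their values did not overlap with each other or with those of H1F0.

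H2AFY, listed with the synonym MACROH2A1, encodes macroH2A, an H2A variant with a large additional domain that is known from silenced chromatin. It had 5.21 and 5.90 RPKM. H2AFY2, its close relative on chromosome 6, had 1.92 and 1.70 RPKM. H2AFZ was 36.3 and 31.2 times H2AFY, and H2AFY was 2.71 and 3.47 times H2AFY2, so the order of the variants was the same in both samples.

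The variants were compared with the core genes of their families as summed RPKM. H3-IX stood at 6.01 times the summed core H3 models in replicate 1 and 3.86 times in replicate 2, and made up 85.7% and 79.4% of the H3 family. H2AFZ stood at 1.63 and 1.48 times the summed core H2A models and made up 60.5% and 58.2% of the H2A family, or 59.4% ± 1.63. With H2A-IX left out of the core H2A genes, the ratio to the core sum was 3.11 and 2.69. By reads without division by length, the H2AFZ share was 73.2% and 71.3%, since its model of 853 bases is longer than the core models of 389 to 410 bases. H2AFZ was 2.20 and 2.57 times H2B-V, the core model of highest mean.

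Summed by family, core H2B stood highest at 228.1 and 208.3 RPKM (218.2 ± 14.0). Core H2A followed with 116.2 and 124.6 RPKM (120.4 ± 5.96), core H3 with 58.4 and 85.0 (71.7 ± 18.8) and H4 with 32.7 and 48.8 (40.8 ± 11.4). No range of one core family overlapped with that of the next in this order. Without H2A-IX the core H2A sum was 60.9 and 68.7 RPKM, which lay within the range of core H3. Only core models contributed to H2B and H4, since no model of either had a variant symbol. With H3-IX the H3 family reached 409.6 and 413.2 RPKM, and with its variants the H2A family reached 312.5 and 316.5.

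**Figure D2:**
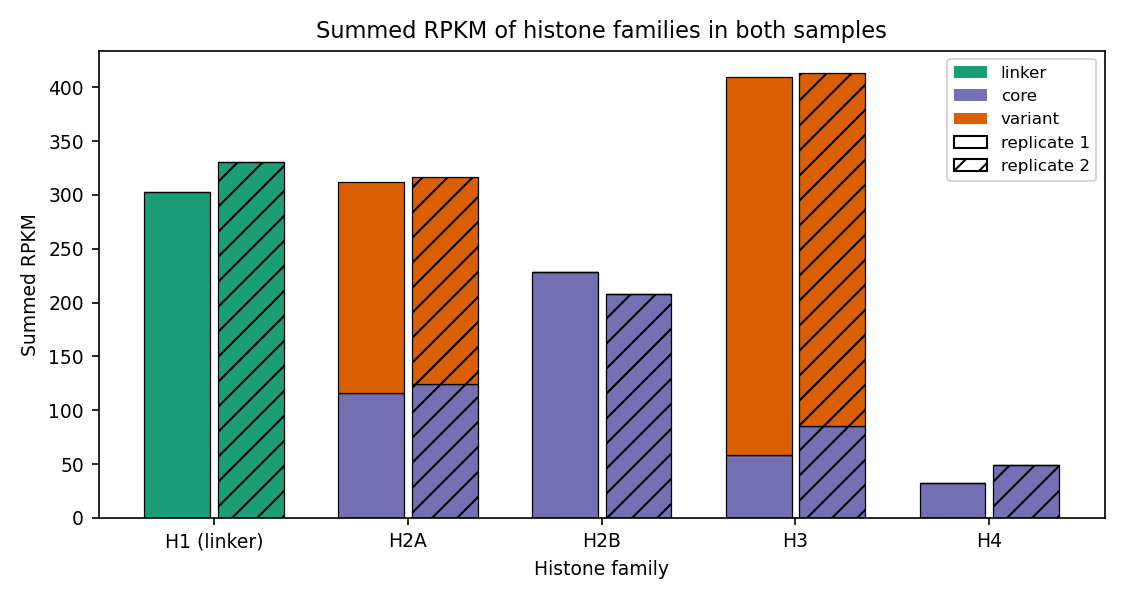
Summed RPKM per histone family in replicate 1 (plain bars) and replicate 2 (hatched bars), stacked by core, linker and variant genes. Variant genes make up most of the H3 and H2A bars, and the H4 bars are the lowest at 32.7 and 48.8 RPKM.

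The H2A models were led by H2A-IX (ENSGALG00000023225), with 55.3 and 56.0 RPKM from 901 and 698 reads. The next was a HIST2H2AC model (ENSGALG00000023209) with 28.4 and 40.2 RPKM. The lowest was HIST1H2AH, which lay on chromosome 1 but 87.2 Mb beyond the cluster. No read was counted in either sample, and a count of 0 allows a level of up to that of 3 reads, 0.186 RPKM in replicate 1 and 0.242 RPKM in replicate 2.

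Among H2B models, H2B-V (ENSGALG00000023208) stood highest with 1295 and 828 reads, or 85.8 and 71.7 RPKM. An H2B-I model (ENSGALG00000023207) followed with 40.2 and 41.0 RPKM, and the lowest H2B-I model (ENSGALG00000023224) had 0.93 and 0.87. H2B models fell into a set of 5 with means from 21.3 to 78.7 RPKM and a pair of H2B-I models with means of 0.90 and 0.93.

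In the H3 family outside H3-IX, nearly all signal came from 1 H3-I model. ENSGALG00000023215 had 874 and 986 reads, or 53.7 and 79.1 RPKM. The next H3-I model (ENSGALG00000023220) had 1.97 and 1.84 RPKM, and the lowest (ENSGALG00000023219) had 0.47 and 0.53. The highest model thus held 91.9% and 93.0% of the summed H3-I RPKM.

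The H4 family was alike in this respect. The highest H4-I model (ENSGALG00000023232) had 361 and 423 reads, or 29.2 and 44.7 RPKM, and the next (ENSGALG00000023227) had 1.78 and 2.12. This second model overlaps ENSGALG00000023226 on the opposite strand, which had 2 reads and 1 read, and the use of strand in counting was not given in the sources used here. The lowest H4-I model (ENSGALG00000023217) had 1 read in replicate 1 and 2 in replicate 2. Of 6 H4 models 2 were detected, the fewest of the core families, against 6 of 9 for H2A, 5 of 7 for H2B and 4 of 5 for H3. Of all analysed genes 52.6% were detected, and of all models of 300 to 450 bases 27.6%. The H4 models, of 311 to 335 bases, were thus near the share of models of such length.

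Most models that share a symbol differed widely in level. There were 6 such symbols with 23 models in all. The highest and lowest models were picked by these same values, and the same ratio in sets of other genes is not given here. The highest model exceeded the lowest by 114.2 and 149.2 times for the 5 H3-I models and by 43.2 and 47.1 times for the 5 H2B-I models. For the 4 H2A-VII models the ratios were 32.8 and 16.0, and for the 3 HIST2H2AC models 20.7 and 13.4. The 2 models listed as H4 were closer in replicate 1, with 0.83 and 0.62 RPKM, and had 1.47 and 0.10 in replicate 2, the latter from 1 read. The lowest H4-I model was at or under 3 reads, so no ratio is given for it. The treatment of reads that match several near-identical copies was not given in the sources used here. The division of reads among these copies and the sum over them are therefore uncertain. The part of this in these differences was not tested.

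The 10 highest core models held 94.6% of the summed core RPKM in replicate 1 and 93.4% in replicate 2. Around the detection threshold, an H3-I model (ENSGALG00000023228) lay just inside with 1.11 and 1.28 RPKM. An H2A-VII model (ENSGALG00000011773) lay just outside with 1.04 and 0.88, as did an H4 model (ENSGALG00000023213) with 0.83 and 1.47. These models rested on 11 to 18 reads per sample, so their calls depend on few reads.

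Core genes and variants differed in position and gene structure. This difference is in part set by the sorting, since both traits were used to place H3-IX, H2A-IX and H3-I. A total of 27 of the 35 members, 26 core models and HIST1H1C, lay within 105.5 kb of chromosome 1, from 49943674 to 50049131, with 14 on the plus strand and 13 on the minus strand. H1F0 lay on the same chromosome, 3027 kb beyond the end of this cluster. In 27 of 27 core models and 3 of 4 linker models the listed length equalled the span, as in a model with no intron, and in 0 of 4 variant models. Across all analysed genes 11.6% of models had this property. Counted with the start and the end position included, all 27 core models covered a number of bases that was a multiple of 3, as models of coding sequence alone do. The span was a multiple of 3 in 5993 of 16464 analysed genes and in 318 of 686 models of 300 to 450 bases. No annotation of coding sequence was checked, and reads in any untranslated region outside a model were not counted for it.

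Levels changed abruptly along the cluster. Of its 27 models 18 were detected, against 52.6% of all analysed genes and 27.6% of models of 300 to 450 bases. Of the 27, 10 had a mean above 20 RPKM and 13 had a mean under 2 RPKM. Among all analysed genes, a mean of 1.95 RPKM lay at the 50.4th percentile and one of 21.3 RPKM at the 81.3rd. The share of cluster models under 2 RPKM was thus near that of all genes. A run of 7 neighbouring members, from 49976548 to 50012390, lay under 2 RPKM. It was flanked by H2A-IX with a mean of 55.7 RPKM on the near side and by the high H3-I model with 66.4 on the far side. The run counts histone members only. ENSGALG00000011775, a model without a histone symbol within the same stretch, had 3.65 and 4.47 RPKM. The final 4 members, HIST1H1C, HIST2H2AC, H2B-V and H2B-I, all lay above 20 RPKM in both samples. So did the member just before them, an H2B-I model (ENSGALG00000023210) with 40.5 and 33.9 RPKM. This grouping was chosen after the values were seen.

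**Figure D3:**
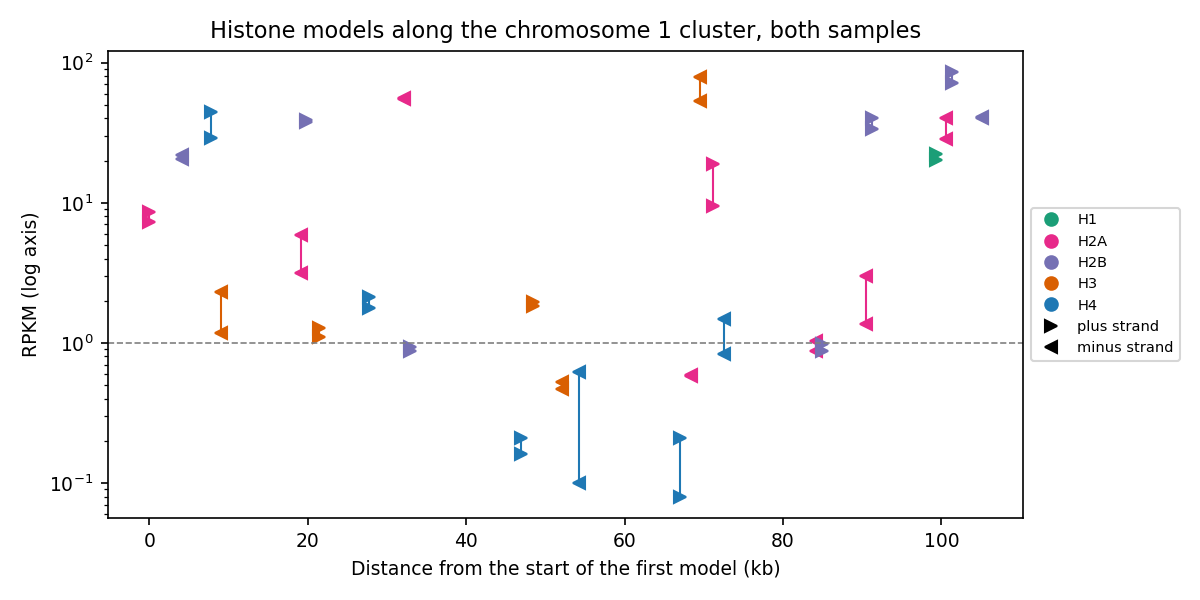
RPKM (log axis) of the 27 histone models of the chromosome 1 cluster against distance in kb from the start of the first model, with both samples joined by a line, colours for families and arrowheads for strand. High and low models lie side by side in places, and the middle holds a run of 7 histone models under 2 RPKM. The last 4 models, and the H2B-I model just before them, all lie above 20 RPKM.

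H2A and H2B genes of the cluster often stand head to head, an arrangement in which both are transcribed outward from a shared stretch of DNA. There were 5 such pairs, defined as neighbouring members on opposite strands that point away from each other with under 1000 bases between them, and the gaps ranged from 312 to 335 bases. In 4 of these pairs the partners lay at least 1.78 times apart in both samples, and in the remaining pair at most 1.05 times. These limits were set from the values, and no share for other neighbouring genes is given here. Each pair holds a model of a repeated symbol, for which the division of reads among copies is uncertain. The part of this in the levels of the partners was not tested.

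H2A-IX had 55.3 and 56.0 RPKM while its H2B-I partner had 0.93 and 0.87, so that the H2A model was 59.5 and 64.4 times the H2B model. The opposite order was seen in 3 pairs. H2B-VIII had 39.1 and 37.9 RPKM against 3.18 and 5.86 for its HIST2H2AC partner. An H2B-I model (ENSGALG00000023210) had 40.5 and 33.9 against 1.37 and 3.01 for another HIST2H2AC model. These 2 pairs differed by 12.3 and 6.47 times, and by 29.6 and 11.3 times. H2B-V and its HIST2H2AC partner were both high, at 85.8 and 71.7 against 28.4 and 40.2, a ratio of 3.02 and 1.78. In the remaining pair, H2A-VII with 1.04 and 0.88 and H2B-I with 0.99 and 0.87, both partners were low.

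**Figure D4:**
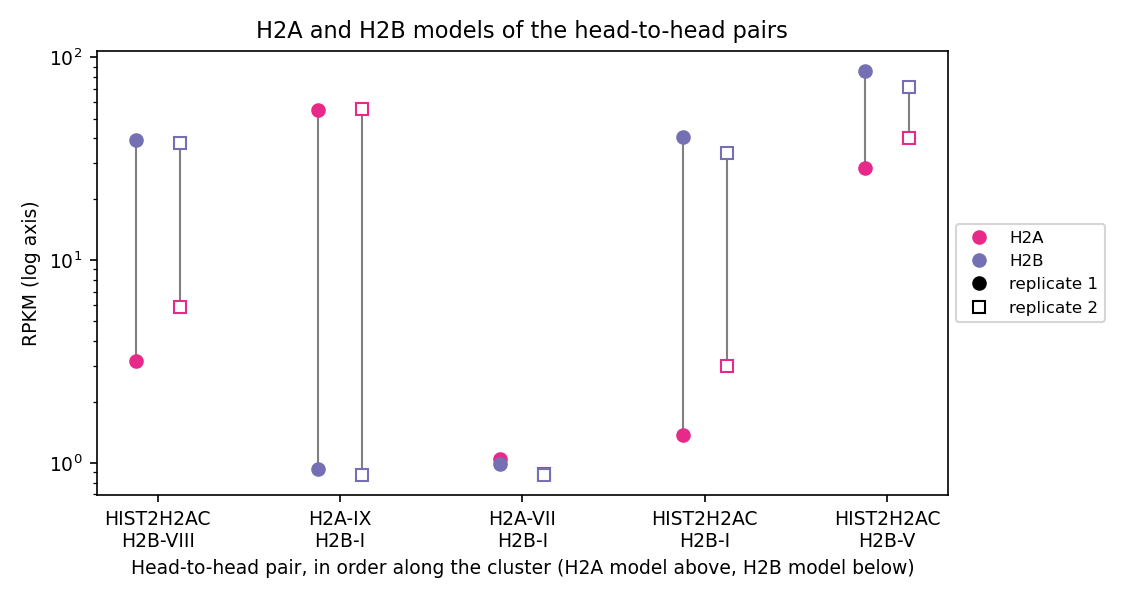
RPKM (log axis) of the H2A (pink) and H2B (purple) model in each of the 5 head-to-head pairs, with circles for replicate 1 and squares for replicate 2. The H2B model is the higher partner in 3 pairs, H2A-IX is the higher partner in its pair, and the H2A-VII pair lies near 1 RPKM with both partners close together.

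The samples were close for the high histone genes and further apart for some core and linker models. Of 17 histone models whose mean level reached 5 RPKM, 3 lay at least 1.5-fold apart between the samples, against 4.49% of 6766 analysed genes at that level. H1FX was 1.83 times higher in replicate 2 (95% counting interval 1.59 to 2.11), and the high H4-I model 1.53 times (1.33 to 1.77). With the samples scaled by the median ratio of all genes at that level, the H4-I ratio was 1.48, which ended its 1.5-fold call. The higher of the H2A-VII models (ENSGALG00000023214) had 294 and 112 reads, or 19.0 and 9.47 RPKM, a ratio of 0.498 (0.397 to 0.621). H2B-V was the next lower in replicate 2, with a ratio of 0.835 (0.764 to 0.912). The intervals of these 4 models did not include 1, so their differences exceeded counting error. The same held for the high H3-I model (1.34 to 1.62) and the highest HIST2H2AC model (1.24 to 1.61). It also held for an H2B-I model (ENSGALG00000023210, 0.737 to 0.949), H3-IX (0.9115 to 0.9578) and H1F0 (1.01 to 1.09). With 1 sample on each side, none of these differences has a replicate check. The intervals are without the scaling, which moved the ratio of H1F0 from 1.05 to 1.02 and that of H2AFZ from 0.974 to 0.944. For models with ratios near 1, the list can thus depend on scaling. The share of all analysed genes with intervals that leave out 1 is not given here.

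Between the samples, the summed core H3 and H4 models differed more than those of core H2A and H2B. The ratio of replicate 2 to replicate 1 was 1.46 for the core H3 sum and 1.49 for the H4 sum, and 1.07 for core H2A and 0.913 for core H2B. The core H2A sum combines opposite differences. Its models with reads ranged from a ratio of 0.498 for the higher H2A-VII model to 2.20 for a HIST2H2AC model of 22 and 37 reads. The HIST2H2AC models of higher level had ratios of 1.843 and 1.415, and H2A-IX had 1.01. Single H2A models thus differed as much as the H3 and H4 sums. Within H3 and H4 the sums rest on a single high model each. Without those models the ratios were 1.26 for H3, from 78 and 76 reads, and 1.18 for H4, from 44 and 40 reads. The ratio of H3 to H4 core sums was 1.79 and 1.74 in the 2 samples, while that of H2B to H4 was 6.97 and 4.26.

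**Figure D5:**
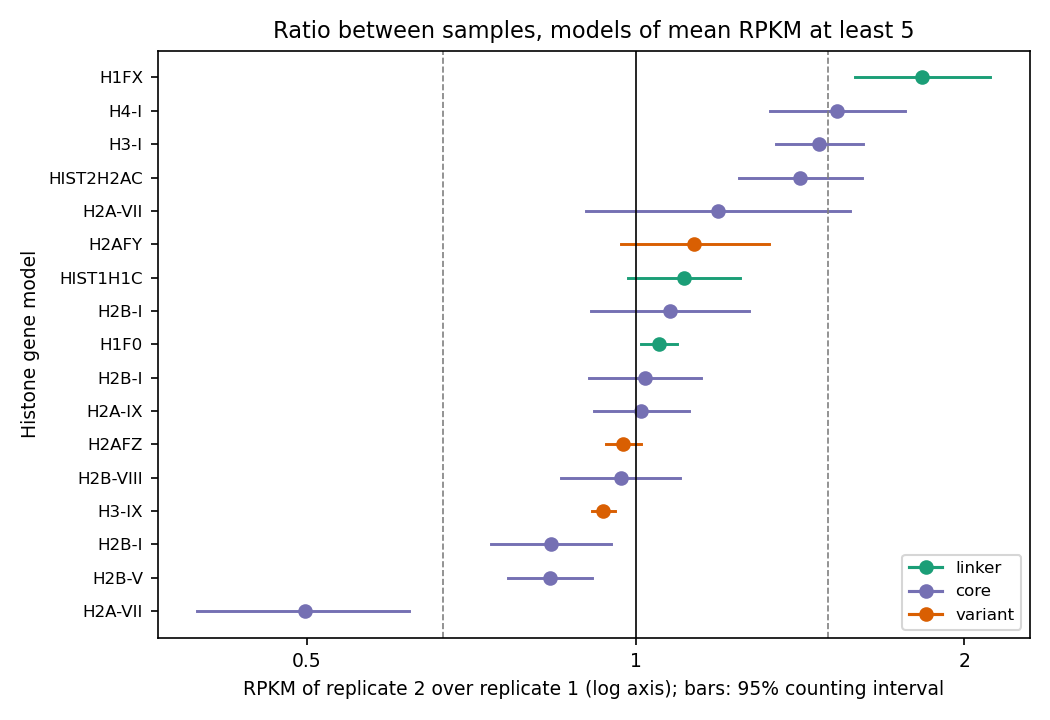
Ratio of RPKM in replicate 2 to replicate 1 (log axis) for the 17 histone models of mean RPKM at least 5, with 95% exact counting intervals as bars and dashed lines at a 1.5-fold difference. H1FX and H4-I lie beyond the line on the right and an H2A-VII model at 0.498 beyond that on the left, while H1F0, H2AFZ and H3-IX lie close to 1 with narrow intervals.

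Genes that act on histone mRNA or carry histone proteins were measured as a list. Of 51 listed factors 37 were matched by symbol, and 37 of 37 had at least 1 RPKM in both samples, against 52.6% of all analysed genes, with a median of 23.3 RPKM. The other 14 were not analysed here.

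Of the factors for histone transcription and 3′ end processing, 11 of 17 were matched. SLBP, which binds the stem-loop of replication-dependent histone mRNAs, had 9.53 and 10.3 RPKM. NPAT, the coactivator of histone gene transcription at histone locus bodies, had 2.79 and 3.22. The U7 snRNP proteins LSM10 and LSM11, which direct cleavage of the histone mRNA end, had 1.03 and 1.98, and 6.37 and 7.24. LSM10 rested on 15 and 22 reads. The highest of this group, SNRPF with 255.5 and 215.7 RPKM and SNRPB with 137.0 and 167.5, encode Sm proteins, which the U7 snRNP shares with the spliceosomal snRNPs.

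Of the chaperones and other histone carriers, 26 of 34 were matched. NPM1, an abundant nucleolar histone chaperone, was the highest with 414.4 and 287.9 RPKM. NAP1L1, a carrier of H2A and H2B, had 234.1 and 231.5. NCL, a nucleolar protein that also binds histones, had 206.3 and 243.1. ASF1A, which hands H3 and H4 to other chaperones, had 152.2 and 132.8 RPKM.

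The subunits CHAF1A and CHAF1B of CAF-1, which deposits H3 and H4 behind the replication fork, had 13.15 and 13.44, and 14.65 and 13.17 RPKM. HIRA, which deposits H3.3 outside replication, had 13.4 and 14.6, a range that overlapped with those of CHAF1A and CHAF1B. NASP, a carrier of linker histones and of H3 and H4, had 12.96 and 13.05. SSRP1, a subunit of the FACT complex that handles H2A and H2B during transcription, had 57.8 and 66.3, and ANP32E, which removes H2A.Z from nucleosomes, had 113.3 and 101.5 RPKM.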

How the data were processed

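Per the labels' protocols, RNA was treated with DNase, depleted of ribosomal RNA, fragmented with RNase III and made into SOLiD libraries, with no poly(A) selection mentioned. The authors deposited 1 table that holds, for every gene, each sample's read count and RPKM. Aligner, counter, genome build and annotation were not given in the sources used here. Deposited RPKM could be recomputed from the deposited count, the listed length and 1 total per sample (39711334 and 30405303).

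Rows without a symbol and with 0 reads in both samples, 1470 of 17934, were left out. Levels were the deposited RPKM, with a pseudocount of 1 on the log2 scale. With 1 group, no test was made, and counts were used for exact binomial intervals (95%) and limits at 0 reads (3 reads). Every histone row was kept, and for factors and markers the longest model of a symbol. Members and lists were chosen with earlier results of these data known. Named were all linker and variant models, the 2 highest and the lowest core model per family, models with 0 reads, the 2 largest differences between samples each way, and listed factors. Further core models, the factors SNRPB, NCL and ANP32E, and positions were named after their values were seen. Alternatives were other thresholds, pseudocounts, scalings, class assignments and single samples. The 1.5-fold call was tested on simulated counts with counting error only, and the sorting into classes on a set of symbols. Other steps were not tested in this way. Tools were Python 3.11.15, scipy 1.17.1, pandas 2.3.3, numpy 2.4.6 and, for figures, matplotlib 3.10.9.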

Additional observations from a re-analysis of the deposited data

How the results depend on the processing

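With each sample alone, 25 of 35 histone models were detected, the median level moved from 1.48 to 1.73 for core, 4.21 to 4.69 for linker and 5.10 to 5.16 for variant models, the H1F0 share from 84.9% to 88.3%, the H2AFZ share from 58.2% to 60.5%, and the share of reads from 0.0892% to 0.0893%. Between 17 and 29 histone models were detected under the other thresholds, and 34 to 37 of the listed factors. With the longest model of each symbol, 12 of 18 symbols were detected. The shares of all analysed genes under these settings and with single samples are not given here, so these counts show only how the calls move. A pseudocount of 0.1 gave medians of 1.04 for core and 5.02 for variant models. Rescaling to a fixed sum per sample (as TPM) gave 0.68 for core, 2.92 for linker and 3.66 for variant models, and moved the median of all genes by -0.85. Linker and variant models stayed above the median of all genes, by 2.28 and 3.01. The variant median, over few models, was 2.71 with H3-IX counted as core and 5.82 with H2A-IX counted as a variant, both chosen after seeing the data, and the latter gave a mean ratio of H2AFZ to core H2A of 2.90. The H2AFZ share was 72.3% by reads, and histones held 0.147% of reads outside small RNA and mitochondrial genes. With a minimum of 1 read per sample, 10 models lay 1.5-fold apart. Some of these rested on few reads, such as H1FOO with 1 and 3 and an H4 model with 8 and 1. The share of all genes under that rule is not given here. With scaling by the median ratio, 2 of the 17 models of mean RPKM at least 5 lay 1.5-fold apart, since H4-I fell to 1.48. The share of all genes after that scaling is not given here either. Leaving out a sample gives no difference between samples. No paired analysis was possible because there is 1 group. Models with under 20 reads limit the calls near the threshold.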

Other observations

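Within the span of the histone cluster on chromosome 1, 6 further models had no histone symbol and were not counted as members. The highest, ENSGALG00000011747, had 23.8 and 20.7 RPKM from 619 and 412 reads on a model of 656 bases. ENSGALG00000011775, of 662 bases, had 3.65 and 4.47 RPKM, and ENSGALG00000011771, of 659 bases, had 1.95 and 1.15. The others were under 2 RPKM in both samples. The files do not pair these identifiers with gene names, so they add to no family above.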
